A study of Mus musculus with 6 samples.

Results

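The proteasome genes of CD27SP NK cells were examined, that is, every protein-coding gene whose symbol starts with *Psma*, *Psmb*, *Psmc*, *Psmd*, *Psme*, *Psmf* or *Psmg* followed by a number, plus *Pomp*. The names alone chose the members, and 51 genes among 25690 gene symbols met the rule. They comprised 14 genes of the constitutive core, 5 immunoproteasome genes, 17 genes of the regulatory particle, 8 assembly factors, 3 other regulators and 4 genes that belong elsewhere by tissue, sequence or name. CD27SP NK cells, the immature NK1.1+CD27+CD11b− subset, were sorted from the BM of mice on a C57BL/6 background. *Ncr1cre Myc* fl/fl mice carry floxed *Myc*, which encodes a transcription factor of cell growth, and a Cre recombinase driven by *Ncr1*, a gene switched on in NK cells and in other Ncr1+ innate lymphocytes. The controls were *Ncr1cre Myc* wt/wt mice, so all animals carried the Cre. The study used mice of 6–14 wk matched for age and sex. Each genotype had 3 polyA-selected RNA-seq libraries, numbered 1, 2 and 4, and nothing in the labels says how many mice each library came from, so that p-values measure the spread between these libraries.

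The proteasome degrades proteins that carry ubiquitin chains. Its core particle is a barrel of stacked rings, in which α subunits form the outer gates and β subunits the inner chamber, where *Psmb5*, *Psmb6* and *Psmb7* encode the subunits that cut peptide bonds. In lymphocytes, and in other cells exposed to interferon-γ, these are exchanged for *Psmb8*, *Psmb9* and *Psmb10*, and the resulting immunoproteasome is known for producing peptides for MHC class I. The regulatory particle, built of ATPases (*Psmc* genes) and non-ATPase subunits (most *Psmd* genes), recognises, unfolds and feeds in the substrate, whereas *Psme1* and *Psme2* encode the PA28 activator, an alternative cap.

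The sequence around the transcription start is shown for 5 members, each of which holds a marked motif. They are the core genes with the most negative log2 fold change in the α ring (*Psma4*) and the β ring (*Psmb5*, *Psmb6*), the most abundant member (*Psmb8*) and the activator gene *Psme1*. The windows of *Psme2*, the other activator gene, held none of the motifs named below and are not shown. Each sequence shown is the RefSeq sequence of build GRCm38.p6 from 250 bases before to 50 bases after the start, read 5′ to 3′ on the gene's own strand. Capitals mark an E-box (CACGTG, the site bound by Myc with Max) in *Psma4*, an antioxidant response element (TGACNNNGC, the type of site bound by Nfe2l1 and Nfe2l2) in *Psmb5* and *Psmb6*, a STAT site (TTCNNNGAA) in *Psmb8*, and an interferon response element (the ISRE, here on the opposite strand) in *Psme1*. The windows are *Psma4* chr9:54950609-54950908 (+), *Psmb5* chr14:54617946-54618245 (−), *Psmb6* chr11:70525107-70525406 (+), *Psmb8* chr17:34197945-34198244 (+) and *Psme1* chr14:55578244-55578543 (+).
Psma4: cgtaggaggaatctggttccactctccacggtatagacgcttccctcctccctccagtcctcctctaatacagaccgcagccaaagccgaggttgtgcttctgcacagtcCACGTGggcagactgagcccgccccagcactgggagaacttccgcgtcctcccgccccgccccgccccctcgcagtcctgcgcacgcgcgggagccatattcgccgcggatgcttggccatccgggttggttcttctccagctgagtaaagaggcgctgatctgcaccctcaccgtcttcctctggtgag
Psmb5: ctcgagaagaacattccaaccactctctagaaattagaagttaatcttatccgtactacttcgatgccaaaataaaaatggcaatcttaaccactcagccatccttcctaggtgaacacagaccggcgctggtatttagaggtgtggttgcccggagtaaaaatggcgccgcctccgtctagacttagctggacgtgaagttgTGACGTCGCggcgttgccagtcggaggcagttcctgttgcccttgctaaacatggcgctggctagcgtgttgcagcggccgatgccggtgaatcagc
Psmb6: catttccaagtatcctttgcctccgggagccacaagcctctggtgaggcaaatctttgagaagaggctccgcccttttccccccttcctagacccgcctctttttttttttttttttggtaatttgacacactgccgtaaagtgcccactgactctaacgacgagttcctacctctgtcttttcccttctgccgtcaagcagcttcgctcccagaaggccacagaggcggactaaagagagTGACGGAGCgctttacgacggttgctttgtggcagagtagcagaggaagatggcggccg
Psmb8: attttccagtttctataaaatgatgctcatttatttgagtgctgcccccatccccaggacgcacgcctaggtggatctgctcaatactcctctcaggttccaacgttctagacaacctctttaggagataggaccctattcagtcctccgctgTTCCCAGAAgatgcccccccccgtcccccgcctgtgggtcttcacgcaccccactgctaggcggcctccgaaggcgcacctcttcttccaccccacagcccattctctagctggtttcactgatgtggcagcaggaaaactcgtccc
Psme1: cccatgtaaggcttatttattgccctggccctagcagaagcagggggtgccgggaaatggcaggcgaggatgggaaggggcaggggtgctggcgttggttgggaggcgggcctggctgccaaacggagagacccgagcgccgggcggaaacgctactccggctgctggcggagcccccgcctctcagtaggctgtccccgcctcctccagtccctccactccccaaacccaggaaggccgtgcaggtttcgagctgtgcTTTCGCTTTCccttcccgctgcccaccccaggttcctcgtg

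Of the 51 members, 43 had a start window in the table of mouse promoters, and each motif was searched on both strands. The E-box stood in 4 of them (9.30%, against 8.09% of all genes with a window), which were *Psma4*, *Psmb10*, *Psmd9* and *Psme3*. It stood in 1 of 11 core genes and 0 of 14 regulatory particle genes with a window, counts near that share. The antioxidant response element was found in 6 members (14.0%, and 14.0% of all genes), the STAT site in 3 (6.98%, against 9.55%) and the interferon response element in 5 (11.6%, against 3.99%). The STAT site stood in *Psmb8*, *Psmd2* and *Psmg1*, and the interferon response element in *Psmb3*, *Psmd4*, *Psmd9*, *Psme1* and *Psmg4*. Each of the 2 was found in only 1 of the 5 immunoproteasome genes. In *Psmb5* and *Psmb6* the antioxidant response element began 47 and 9 bases before the start. A match is a description of these letters and not a bound site, and a missing match says nothing about the factor.

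The libraries held 54550907 to 64962491 estimated counts, except *Myc* wt/wt library 1 with 8101219. *Myc* itself lay at 200.5, 183 and 164 CPM (counts scaled to a common library size, with TMM factors for composition) in wt/wt libraries 1, 2 and 4, and at 61.5, 64.6 and 76.5 in the fl/fl libraries, and fell by 1.44 on the log2 scale (SE 0.15; adjusted p = 0.00189, edgeR). Without replicate 1 the log2 fold change was −1.30 with an edgeR adjusted p of 0.0105, short of the stricter rule defined below. A residual 37.0% of the wt/wt mean remained. *Ncr1* had 931, 723 and 1016 CPM in wt/wt and 935, 958 and 793 in fl/fl, and *Klrb1c*, which encodes NK1.1, 1673, 1608 and 1713 and 2162, 2229.7 and 1555, so that the NK cell markers were abundant in every library. The summed level of 10 NK marker genes was 12861 to 13971 CPM in wt/wt and 15940 to 16671 in fl/fl libraries. Markers of other BM cells moved with the genotype. Under the stricter rule, 1.28% of all genes were called higher. For 8 basophil and mast cell genes, all 8 higher under that rule, the sum was 15.1 to 18.5 CPM in wt/wt and 121.6 to 334 in fl/fl libraries. The sum of the neutrophil progenitor genes was 85.4 to 140.0 against 538 to 897 CPM (4 of 8 called higher), and that of the erythroid genes 27.2 to 149 against 314 to 633 CPM (3 of 6). The monocyte genes summed to 1659 to 1865 against 2085 to 2370 CPM (4 of 6), of which *Ccr2*, not called, held 1417 to 1724 and 1669.9 to 2019.5 CPM, and the dendritic cell genes to 136 to 194 against 196 to 266 CPM (1 of 7). No B cell gene of 5 and no T cell gene of 6 was called, with sums of 4.55 to 8.64 against 11.5 to 15.2 CPM and of 254 to 509 against 273 to 358 CPM. No list had a defining marker at 0 in all wt/wt libraries, and the part of these cells in the proteasome values was not tested.

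No proteasome gene passed the test, although nearly all had a lower level in the *Myc* fl/fl libraries. Differences were tested over 15474 genes by edgeR with the replicate number as a block, and p-values were adjusted over all of them by the Benjamini-Hochberg method. Under the stricter rule, which asked for an adjusted p under 0.01 together with a log2 fold change of 0.5 or more in size, 0 of 51 members were lower and 0 higher, where 0.872% of all genes were called lower and 1.28% higher. When only an adjusted p under 0.05 was asked for, the counts were again 0 and 0, against 3.38% and 4.45% of all genes. Before adjustment, 23 of 51 members had a p below 0.05 in the lower direction and 0 in the higher (10.2% and 12.4% of all genes). DESeq2 called 6 members at an adjusted p below 0.05, all lower (*Psma4*, *Psma5*, *Psmb5*, *Psmb6*, *Psmc5* and *Psmg2*), where it called 6.09% of all its genes lower, and limma-trend called 0. Without the block, edgeR called 5 (the same names except *Psmb6*), where it called 4.47% of all genes lower.

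In direction, 47 of the 51 members were lower in fl/fl and 4 higher, whereas 48.5% of all genes were lower. In 39 members the fl/fl library was the lower one for each of the 3 replicate numbers, as in 3277 of the 15474 genes. The 3 fl/fl libraries all lay below the 3 wt/wt libraries in 33 members, against 15.1% of all genes, and all above them in 1 member, against 16.2%. The members' log2 fold changes had a median of −0.31 and ranged from −0.62 to 1.03, beside a median of 0.014 over all genes. In bulk RNA, fewer cells of a type and less RNA per cell cannot be told apart. The difference was greatest with the shallow library, since the median over the members was −0.41, −0.15 and −0.27 within replicate numbers 1, 2 and 4 (0.064, 0.0020 and −0.0057 over all genes). That wt/wt library 1 was the highest of its genotype in 29 of 51 members (56.9%), against 39.2% of all genes. Without it, 37 members had both remaining wt/wt libraries above all fl/fl libraries (22.3% of all genes), and 1 had them below (21.9%). A fit without it and without the block called 2 members at an adjusted p below 0.05 (*Psma4* and *Psmd6*), a share near the 3.87% of all genes that it called lower.

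**Figure D1:**
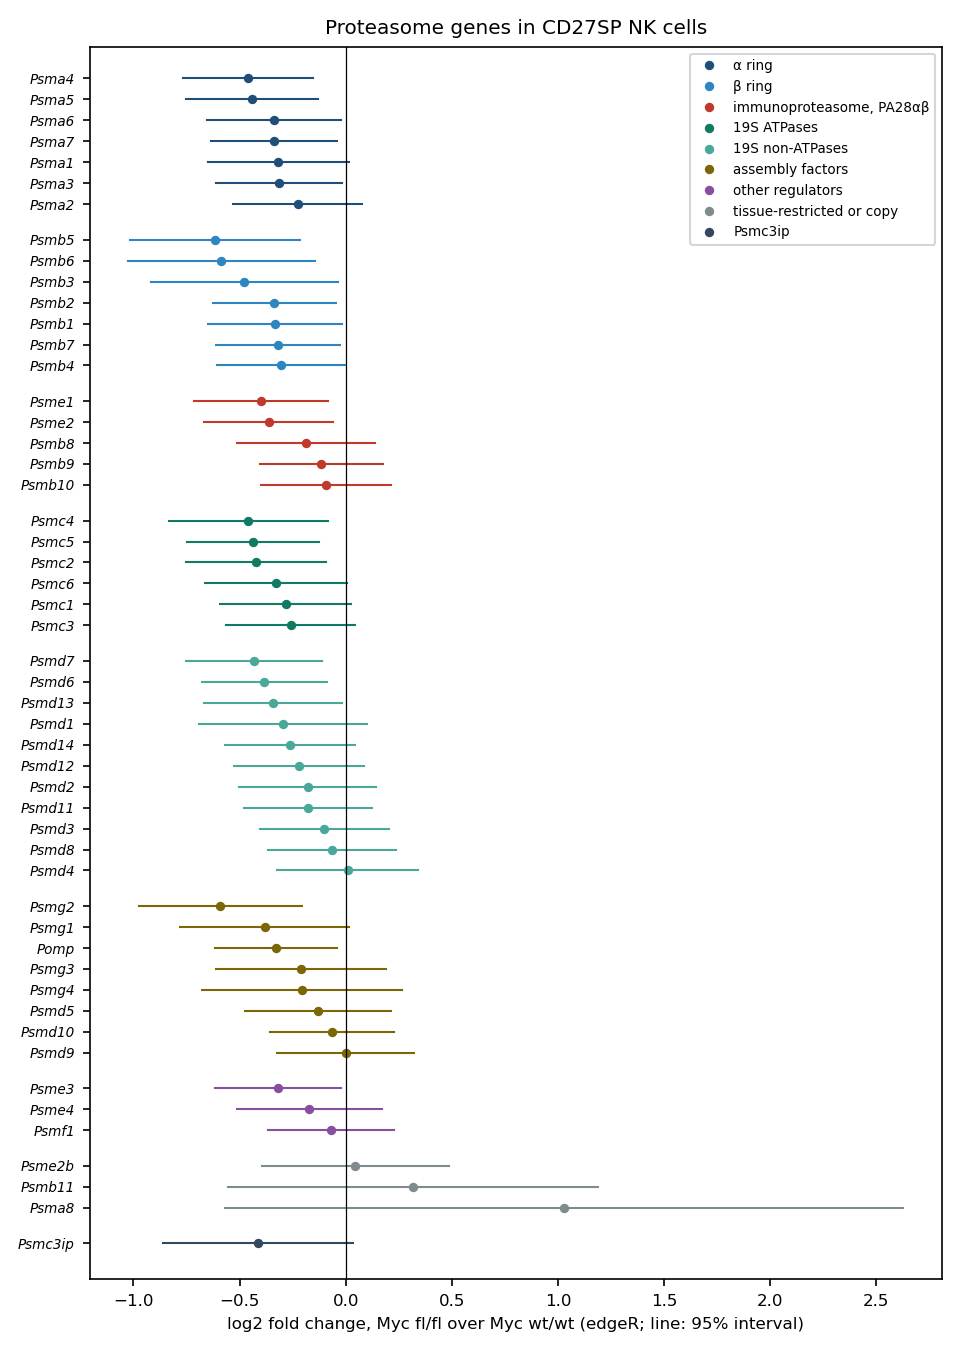
Log2 fold change of each proteasome gene, *Myc* fl/fl over *Myc* wt/wt, with its 95% interval from edgeR (3 libraries per genotype), grouped by role. All core genes sit left of 0 between −0.62 and −0.23, and the interval widest by far is that of *Psma8*.

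All 14 genes of the constitutive core were lower in fl/fl, and each had its 3 fl/fl libraries below its 3 wt/wt libraries, with or without wt/wt library 1 (15.1% and 22.3% of all genes). None passed the test. Their log2 fold changes lay between −0.62 and −0.23, with a median of −0.34 in the α ring and also in the β ring. Within replicate numbers 1, 2 and 4, the core median was −0.51, −0.22 and −0.34.

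Among the α genes, whose products gate the barrel, *Psma4* differed most. It had 221, 196 and 207 CPM in wt/wt libraries 1, 2 and 4 and 141, 159.5 and 153 CPM in the fl/fl libraries. The groups were apart, at 208 ± 12.4 against 151 ± 9.64 CPM (mean ± SD, n = 3 each), and the log2 fold change was −0.46 (SE 0.14, 95% interval −0.77 to −0.15, edgeR adjusted p = 0.0725). *Psma2* differed least in this ring, with 398, 361 and 393 CPM against 309, 348 and 327 CPM. Its groups were separated by a small gap, and the log2 fold change was −0.23 (SE 0.13, edgeR adjusted p = 0.367). *Psma5* stood next to *Psma4*, with 173, 152 and 149 CPM against 108, 119.7 and 119.7 CPM and a log2 fold change of −0.44 (SE 0.14, edgeR adjusted p = 0.0869). The other α genes (*Psma1*, *Psma3*, *Psma6* and *Psma7*) had log2 fold changes of −0.34 to −0.31, of which that of *Psma1* went from −0.32 to −0.16 without replicate 1.

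In the fit of all 6 libraries, the β ring held the gene with the most negative log2 fold change of all members. *Psmb5*, which encodes the subunit with chymotrypsin-like activity (chr14:54614119-54618022, minus strand), had 278, 207 and 194 CPM in wt/wt and 124, 162 and 153 CPM in fl/fl libraries. The fl/fl mean was 64.7% of the wt/wt mean, with a log2 fold change of −0.62 (SE 0.18, 95% interval −1.02 to −0.21, edgeR adjusted p = 0.0682). *Psmb6*, which encodes the caspase-like subunit, had 499, 296 and 285 CPM against 213, 238 and 244 CPM. Here wt/wt library 1 stood far above the other wt/wt libraries, which lay closer to the fl/fl values than to it, and the log2 fold change of −0.59 (SE 0.20, 95% interval −1.02 to −0.15, edgeR adjusted p = 0.105) became −0.27 without replicate 1. *Psmb5* moved likewise, to −0.35, and was then not the most negative member. With each replicate left out, *Psmg2* stayed at −0.42 or lower and *Psma4* at −0.37 or lower. *Psmb7*, which encodes the trypsin-like subunit, was the lowest core gene per length and showed little spread, at 103, 98.1 and 101 CPM against 82.0, 83.8 and 77.0 CPM. Its groups did not overlap, and the log2 fold change was −0.32 (SE 0.13, 95% interval −0.61 to −0.026, edgeR adjusted p = 0.182), or −0.31 without replicate 1. A stretch of 405 exon bases of *Psmb7* overlaps *Nek6* on the opposite strand, and SMART-Seq v4 reads do not tell strands apart.

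The structural β genes were lower as well. In *Psmb3*, the deviation of wt/wt library 1 was the plainest, with 619, 340.3 and 326 CPM against 283, 303 and 294 CPM, and the log2 fold change of −0.48 (SE 0.20, edgeR adjusted p = 0.185) went to −0.16 without replicate 1. *Psmb4* had the difference nearest to 0 in this ring, −0.30 (SE 0.13, edgeR adjusted p = 0.218), with 144, 132 and 155 CPM in wt/wt and 109.8, 122 and 118 CPM in fl/fl. *Psmb1* and *Psmb2* had log2 fold changes of −0.33 and −0.34.

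**Figure D2:**
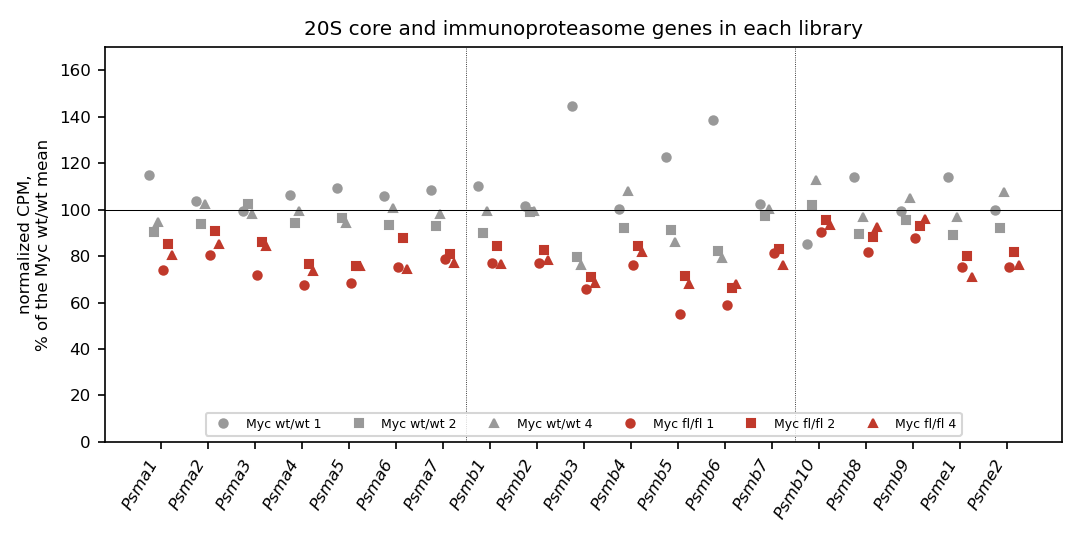
Normalised CPM of the core and immunoproteasome genes in each of the 6 libraries, as a percent of the gene's *Myc* wt/wt mean (line at 100). The fl/fl symbols lie below all wt/wt symbols in every core gene but mingle with them in *Psmb8*, *Psmb9* and *Psmb10*, and wt/wt library 1 stands high in *Psmb3*, *Psmb5* and *Psmb6*.

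The 5 immunoproteasome genes were all lower in fl/fl, at a median of −0.19 on the log2 scale, and none passed the test. Both activator genes had fl/fl libraries below all wt/wt libraries, whereas the 3 catalytic immunosubunits overlapped between genotypes. Without wt/wt library 1, 3 of the 5 genes had no overlap, *Psmb10* being the one added, while the share over all genes went from 15.1% to 22.3%. *Psmb8* and *Psmb9* lie near each other on chromosome 17 in the MHC region, 9957 bases apart on opposite strands, and *Psme1* and *Psme2* lie 5912 bases apart on chromosome 14.

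*Psmb8*, the counterpart of *Psmb5*, had 922, 723 and 783 CPM in wt/wt and 662, 715 and 748 CPM in fl/fl libraries. The highest fl/fl value exceeded the lowest wt/wt value, and the log2 fold change was −0.19 (SE 0.15, 95% interval −0.51 to 0.14, edgeR adjusted p = 0.515), or −0.041 without replicate 1. *Psmb9*, the counterpart of *Psmb6*, had 278, 266 and 292 CPM against 245, 259 and 268 CPM. The genotypes overlapped narrowly, and the log2 fold change was −0.12 (SE 0.13, 95% interval −0.40 to 0.17, edgeR adjusted p = 0.673). *Psmb10*, the counterpart of *Psmb7*, had 179, 214 and 236 CPM against 189.7, 201 and 196 CPM. Here wt/wt library 1 was the lowest of all, and the log2 fold change was −0.093 (SE 0.14, 95% interval −0.40 to 0.21, edgeR adjusted p = 0.759), or −0.18 without replicate 1 and −0.023 without replicate 4. Exons of *Psmb9* share 212 bases with *Tap1*, and those of *Psmb8* share 498 bases with the antisense gene *Gm20496*.

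*Psme1* had 435, 339.6 and 370.4 CPM in wt/wt and 287, 306 and 272 CPM in fl/fl libraries. The groups were separate, with 382 ± 48.8 against 288 ± 17.0 CPM and a log2 fold change of −0.40 (SE 0.14, 95% interval −0.72 to −0.083, edgeR adjusted p = 0.125). *Psme2*, which encodes the partner subunit of the same ring, gave 403, 372 and 434 CPM against 303, 329.7 and 307 CPM. It was separate too, with 403 ± 31.1 against 313 ± 14.5 CPM and a log2 fold change of −0.36 (SE 0.14, 95% interval −0.67 to −0.058, edgeR adjusted p = 0.144).

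Whether the immunosubunits held their level relative to the constitutive subunits they replace was examined by the ratio of TPM (a level per transcript length, scaled to the same total in each library) within each library, for which the normalisation cancels out. The log2 ratio of *Psmb8* to *Psmb5* was 1.52, 1.40 and 1.62 in wt/wt and 2.02, 1.73 and 1.90 in fl/fl libraries. All fl/fl ratios were higher, by 0.37 on average (1.51 ± 0.11 against 1.88 ± 0.15, SD, n = 3; exact permutation test, two-sided p = 0.1, adjusted over the 3 pairs 0.15). As a share of both genes' TPM, *Psmb8* made up 74.1 ± 1.46% in wt/wt and 78.6 ± 1.72% in fl/fl. For *Psmb9* to *Psmb6* the log2 ratio was −1.37, −0.85 and −0.63 in wt/wt and −0.44, −0.59 and −0.52 in fl/fl libraries. The groups again did not overlap, and the difference was 0.43 (−0.95 ± 0.38 against −0.51 ± 0.076; exact permutation test, p = 0.1, adjusted 0.15), or 0.19 without replicate 1. With protein-coding transcripts only, this pair gave 0.42 and an exact permutation p of 0.2. For *Psmb10* to *Psmb7* the ratio was 1.58, 1.97 and 2.08 in wt/wt against 1.98, 2.13 and 2.26 in fl/fl libraries. These groups overlapped, with a difference of 0.24 (1.88 ± 0.26 against 2.12 ± 0.14; exact permutation test, p = 0.2, adjusted 0.2). With 3 against 3 libraries the exact permutation test cannot go below p = 0.1, so that no pair could pass a threshold of 0.05. Of the TPM of *Psmb10*, 69.0 to 78.0% fell on transcripts not annotated as protein-coding, which enter its ratio.

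**Figure D3:**
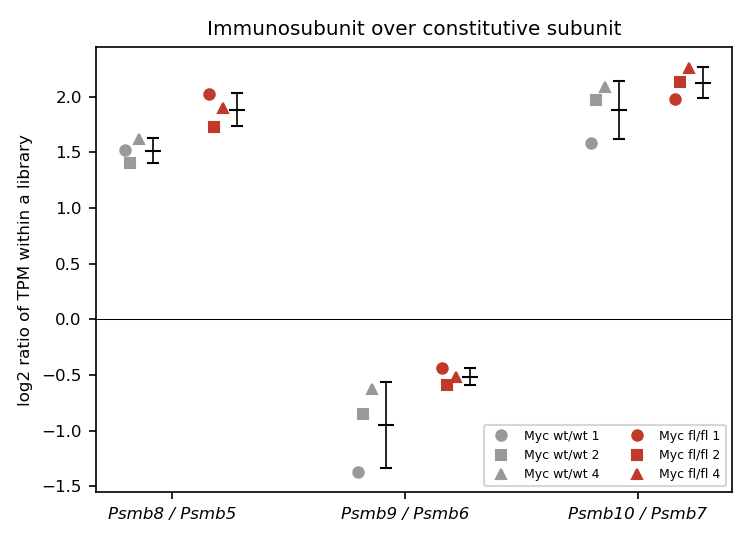
Log2 ratio of the TPM of each immunosubunit gene to that of the constitutive gene it replaces, within each library (symbols), with the mean and SD of each genotype as bars (n = 3). The fl/fl ratios lie above the wt/wt ratios in the *Psmb8* and *Psmb9* pairs and overlap them in the *Psmb10* pair.

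In the regulatory particle, 16 of 17 genes were lower in fl/fl (48.5% of all genes), 11 of them without overlap (15.1%), and none passed the test. The median log2 fold change was −0.28. The ATPase genes, which form the ring that unfolds the substrate, were lower in 6 of 6, all without overlap, with a median of −0.38. The non-ATPase genes were lower in 10 of 11 with a median of −0.22, and 5 of 11 showed no overlap. Without wt/wt library 1, 12 of the 17 genes had no overlap (22.3% of all genes). Without replicate 1, the medians were −0.18 for the particle, −0.22 for the ATPase genes and −0.12 for the non-ATPase genes.

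*Psmc4* differed most among the ATPases in the fit of all 6 libraries, with 273, 188 and 185 CPM in wt/wt and 145, 169 and 148 CPM in fl/fl libraries. Here too wt/wt library 1 was the highest, and the log2 fold change of −0.46 (SE 0.17, 95% interval −0.83 to −0.086, edgeR adjusted p = 0.134) went to −0.23 without replicate 1. *Psmc4* then no longer ranked first, as *Psmc5* stayed at −0.32 or lower and *Psmc2* at −0.28 or lower with each replicate left out. *Psmc5* was more even, with 185, 152 and 154 CPM against 116, 125 and 119.5 CPM and a log2 fold change of −0.44 (SE 0.14, edgeR adjusted p = 0.0908). The smallest difference in this ring was that of *Psmc3*, with 227, 220.4 and 203 CPM against 170.5, 182 and 191 CPM. Its groups did not overlap, and the log2 fold change was −0.26 (SE 0.14, edgeR adjusted p = 0.298). Of its exons, 215 bases are shared with *Slc39a13*.

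*Psmd7*, which encodes the partner of the deubiquitinase Psmd14 in the lid, differed most among the non-ATPase genes. Its values were 173, 131 and 132 CPM in wt/wt and 107, 114 and 99.3 CPM in fl/fl, with a log2 fold change of −0.43 (SE 0.14, 95% interval −0.75 to −0.11, edgeR adjusted p = 0.104). *Psmd14* itself, which removes the ubiquitin chain, had 227, 187 and 194 CPM against 164, 173 and 168 CPM and a log2 fold change of −0.26 (SE 0.14, edgeR adjusted p = 0.30), or −0.16 without replicate 1. *Psmd6*, another lid gene, showed little spread, at 127, 124 and 130.1 CPM against 97.4, 102 and 92.2 CPM, with a log2 fold change of −0.38 (SE 0.13, edgeR adjusted p = 0.112). At the other end stood *Psmd4*, which encodes a ubiquitin receptor. It had 80.7, 106 and 134 CPM against 102, 94.7 and 121 CPM, and its log2 fold change of 0.0087 (SE 0.15, 95% interval −0.32 to 0.34, edgeR adjusted p = 0.983) turned to −0.016 without the block. Nor did the groups separate in *Psmd2*, a scaffold of the base, with 531, 422 and 403 CPM against 388, 387 and 414 CPM.

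The 8 assembly factors were spread more widely, from −0.59 to −0.000785 on the log2 scale with a median of −0.21, and 3 of 8 showed no overlap (*Pomp*, *Psmg1* and *Psmg2*; 15.1% of all genes). Without wt/wt library 1 it was 5 of 8, where 22.3% of all genes showed none. *Psmg2*, whose product pairs with that of *Psmg1* as a chaperone of the α ring, had 61.3, 47.0 and 54.6 CPM in wt/wt and 31.8, 41.4 and 34.7 CPM in fl/fl libraries. The fl/fl mean was 66.3% of the wt/wt mean, and the log2 fold change was −0.59 (SE 0.17, 95% interval −0.98 to −0.21, edgeR adjusted p = 0.0689). *Psmg1* had 26.8, 26.8 and 28.4 CPM against 21.7, 24.0 and 17.8 CPM and a log2 fold change of −0.38 (SE 0.18, edgeR adjusted p = 0.241), or −0.25 without replicate 4. *Pomp*, the maturation factor that joins the β rings, had the highest level of them per length. It gave 180.3, 172 and 183 CPM against 138, 141 and 146 CPM. Its log2 fold change was −0.33 (SE 0.13, edgeR adjusted p = 0.165).

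The second chaperone pair for the α ring, *Psmg3* and *Psmg4*, overlapped between genotypes, with log2 fold changes of −0.21 each, which went to −0.085 and −0.025 without replicate 4. The 3 members that act as chaperones of the ATPase ring were nearest to 0. *Psmd9* had 34.4, 41.7 and 43.5 CPM against 37.0, 39.5 and 42.8 CPM, and a log2 fold change of −0.000785 (SE 0.14, edgeR adjusted p = 0.999) that turned to 0.012 when library size alone was used for normalisation. It has 1849 exon bases in common with *Gm26745*. *Psmd10* had −0.064, and *Psmd5* −0.13, or 0.048 without replicate 1.

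Of the other regulators, *Psme3*, which encodes a nuclear activator that forms a ring of its own, was lower without overlap. It had 275, 304 and 285 CPM against 234, 221 and 237 CPM, and its log2 fold change was −0.32 (SE 0.13, edgeR adjusted p = 0.186). *Psme4*, an activator with a role in chromatin, gave 31.8, 34.3 and 37.2 CPM against 30.3, 30.9 and 30.5 CPM, and its log2 fold change was −0.17 (SE 0.15, edgeR adjusted p = 0.577). *Psmf1*, a proteasome inhibitor, overlapped, with a log2 fold change of −0.070 (SE 0.13, edgeR adjusted p = 0.828), and −0.0040 without replicate 1.

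*Psma8* and *Psmb11*, genes typical of other tissues, were barely detected. *Psma8*, the α subunit of testis, had 0, 11 and 19 counts in wt/wt and 23, 17 and 28 in fl/fl libraries. Its log2 fold change of 1.03 (SE 0.71, 95% interval −0.57 to 2.63, edgeR adjusted p = 0.452) rests on these few counts. *Psmb11*, the thymus-specific β subunit, lies 3411 bases from *Psmb5* and had 7, 137 and 158 counts against 139, 114 and 159, at a log2 fold change of 0.32 (SE 0.39, edgeR adjusted p = 0.707), or −0.037 without replicate 1. *Psme2b*, a near copy of *Psme2* whose reads cannot be told apart with certainty from those of *Psme2*, had 13.3, 11.8 and 18.6 CPM against 15.0, 13.6 and 15.9 CPM. *Psmc3ip*, a meiotic recombination factor that belongs to the group by name alone, had a log2 fold change of −0.41 (SE 0.20, edgeR adjusted p = 0.263), or −0.27 without replicate 1, and shares 385 exon bases with *Mlx*.

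Per length, the immunosubunit *Psmb8* was the highest member in wt/wt cells with a TPM of 1142 ± 145 (SD, n = 3), and it was also the highest in fl/fl cells with 1037 ± 51.5. It was followed in wt/wt by *Psmb3* (926 ± 295), *Psme2* (829 ± 58.4), *Psmb6* (768 ± 200.1) and *Psme1* (693 ± 65.7), and neighbours in this order did not differ beyond their spread. Library 1 gave the highest wt/wt value of *Psmb3* and of *Psmb6*. The lowest core gene was *Psmb7* at 134 ± 5.14 in wt/wt and 115 ± 5.02 in fl/fl, and the highest core gene exceeded the lowest by a factor of 6.92 in wt/wt and 6.05 in fl/fl. In the particle itself these subunits are present in equal number. TPM of *Psmb4*, *Psma3*, *Psmc6*, *Psmd1* and *Pomp* also fell in good part on transcripts not annotated as protein-coding, from 41.0 to 80.3% in the libraries. These include transcripts annotated for nonsense-mediated decay, as in *Psma3*. The share was 17.6 to 68.6% in *Psmd13* and 23.8 to 76.9% in *Psmc3ip*, highest in wt/wt library 1 for both.

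Together, the members took 1.46, 1.30 and 1.30% of all TPM in wt/wt and 1.11, 1.17 and 1.15% in fl/fl libraries. The genotypes did not overlap (1.35 ± 0.0925% against 1.14 ± 0.0289%, a ratio of 84.5%), and the log2 ratio of −0.24 was −0.17 without replicate 1. The core took 0.587 ± 0.0659% against 0.468 ± 0.0162%, and the immunoproteasome genes 0.356 ± 0.0132% against 0.315 ± 0.0116%. The regulatory particle took 0.290 ± 0.0179% against 0.255 ± 0.00283%, and the assembly factors 0.0888 ± 0.00325% against 0.0785 ± 0.00217%. All 4 groups were lower in fl/fl without overlap, at 79.7, 88.6, 87.7 and 88.4% of the wt/wt share in this order. These shares were not tested.

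**Figure D4:**
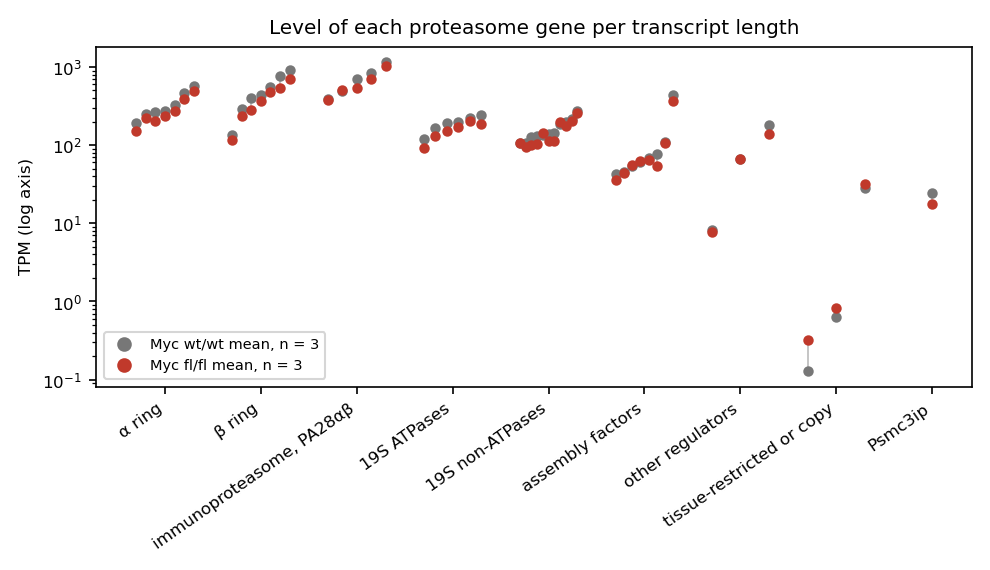
Mean TPM of each proteasome gene by role on a log axis, *Myc* wt/wt in grey and *Myc* fl/fl in red (n = 3 each). *Psmb8* is the highest at 1142 and 1037, the core genes span a factor of 6.92 in wt/wt, and *Psma8* and *Psmb11* lie below 1.

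Other genes of the proteasome pathway, which the rule on names leaves out, gave no call either. Of a list of ubiquitin receptors, deubiquitinases, shuttling factors and transcription factors of proteasome genes, which also holds the regulatory particle subunits *Adrm1* and *Sem1*, 24 were tested, of which 16 were lower (48.5% of all genes) and 8 higher. The median over them was −0.080 on the log2 scale, and 0 passed either rule, where the shares over all genes were 0.872% lower and 1.28% higher under the stricter rule and 3.38% and 4.45% under the other. *Uchl5*, a deubiquitinase of the regulatory particle, had 98.3, 75.6 and 79.0 CPM in wt/wt and 57.8, 51.6 and 67.1 CPM in fl/fl. Its groups did not overlap, and the log2 fold change was −0.52 (SE 0.15, edgeR adjusted p = 0.0654). *Nfe2l1*, the transcription factor known for raising proteasome genes when proteasome activity falls short, lay on the other side. It had 38.6, 49.0 and 41.9 CPM against 85.1, 53.9 and 71.3 CPM, all fl/fl libraries above all wt/wt libraries, with a log2 fold change of 0.67 (SE 0.19, edgeR adjusted p = 0.0609).

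Among 11 genes of the interferon and MHC class I pathways, in which immunosubunits act, 7 were higher and 4 lower in fl/fl. Over all genes, 48.5% were lower, and the stricter rule called 1.28% higher. Of these 11 genes only *Irf8* passed that rule. This transcription factor, which NK cells share with dendritic cells and other myeloid cells, had 251, 270.4 and 288 CPM in wt/wt and 627, 585 and 764 CPM in fl/fl, and rose by a log2 fold change of 1.28 (SE 0.14, 95% interval 0.97 to 1.58, edgeR adjusted p = 0.00189). The sums of the dendritic and monocyte markers given above moved in the same direction, and their part in it was not tested. *Tapbp*, which encodes the peptide-loading protein tapasin, came next, with 633, 618 and 587 CPM against 819.9, 814 and 832 CPM and a log2 fold change of 0.42 (SE 0.13, edgeR adjusted p = 0.0828). *Irf1*, a transcription factor known to act on immunosubunit genes, had a log2 fold change of 0.41 (adjusted p = 0.125, edgeR). *Tap1*, which shares exon bases with *Psmb9*, had −0.11. *Nlrc5*, a further gene of this list, was lower with overlapping groups, at a log2 fold change of −0.42 (SE 0.18, edgeR adjusted p = 0.204).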

How the data were processed

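RNA of sorted CD27SP NK cells was sequenced single end by the authors in 3 libraries of *Ncr1cre Myc* wt/wt mice and 3 of *Ncr1cre Myc* fl/fl mice. Their methods name Salmon and the GRCh38 transcriptome, whereas the deposited tables have the columns of kallisto and mouse transcript identifiers, so the tool is not certain. The deposited values are estimated counts per transcript, not normalized, and TPM, normalized by length and depth by the authors. Identifiers were matched to symbols through GENCODE M21 (GRCm38), where 100239 of 100583 transcripts had a match and 0.129 to 0.169% of the counts had none. Estimated counts were summed by symbol and rounded.

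Genes kept by filterByExpr (15474, all 51 members among them) were normalized by TMM and compared by the quasi-likelihood test of edgeR 4.0.16 (R 4.3.3), and replicate numbers entered as a block, since the study describes paired analyses. Across genes, same-numbered libraries' deviations from their genotype means correlated at −0.0121, −0.0198 and 0.0505, none above 0.1, which does not show that equal numbers mark paired mice. Replicates of a genotype differed by more than counting noise (chi-square per degree of freedom 39.2 to 99.0). Alternatives were DESeq2 1.42.0, limma-trend (limma 3.58.1), their largest adjusted p, no block, other normalizations and filters, effective length offsets, each replicate left out, and, chosen after seeing the data, a fit without wt/wt library 1. TPM ratios were compared by exact permutation tests. Depth limits *Psma8*, *Psmb11* and wt/wt library 1 most. The tests were tried on simulated data. Members, lists and motifs were chosen with earlier results of these data known. Named were all immunoproteasome genes, *Psmb5* to *Psmb7*, the members with the highest and lowest log2 fold change per role, and in the other lists called genes and the pair with the smallest adjusted p. *Psma5*, *Psmb3*, *Psmc5*, *Psmd2*, *Psmd6* and *Psmd14*, and further genes of the members and the other lists, were added after their values were seen. 1 gene of the list of 25 other proteasome pathway genes was not analysed here.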

Additional observations from a re-analysis of the deposited data

How the results depend on the processing

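Under all alternatives run, 0 members passed the stricter rule in either direction, and the members' median log2 fold change stayed between −0.34 and −0.23. The count of members lower at an adjusted p below 0.05, 0 in the reported fit, was 5 with no replicate block (4.47% of all genes in that fit), 6 in DESeq2 (6.09%), 3 with no filter on low counts (3.61%) and 2 without wt/wt library 1 and the block (3.87%), and 0 to 1 with each replicate left out (*Psmg2*, without replicate 2, where 1.89% of all genes were lower). All genes called under the stricter rule numbered 135 lower and 198 higher, against 184 and 203 with no block, 537 and 643 in DESeq2, 78 and 144 in limma-trend, 25 and 49 by library size, 8 and 24 with effective length offsets, 378 and 524 with no filter and 10 and 49 without replicate 1. With each replicate left out, the log2 ratio of the members' TPM share ranged from −0.29 to −0.17, and *Myc* from −1.62 to −1.30, where the fit without replicate 1 no longer passed (edgeR adjusted p = 0.0105). The fit with the replicate block as exact sign changes gave p = 0.25 for each catalytic ratio, the smallest it allows.

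Direction turned in 5 members, none of them past the test. *Psmb11* was −0.043 without wt/wt library 1 and −0.037 to 0.66 with each replicate left out. *Psmd4* was −0.016 with no replicate block, −0.0097 with TMM factors from genes other than ribosomal protein genes, −0.19 without wt/wt library 1 and −0.15 to 0.10 with each replicate left out. *Psmd5* was 0.032 without wt/wt library 1 and −0.24 to 0.048 over the replicates. *Psmd9* was 0.0012 in limma-trend, 0.012 by library size, 0.012 with no filter, 0.025 with at least 10 counts in every library and −0.050 to 0.048 over the replicates. *Psme2b* was −0.050 without wt/wt library 1 and −0.025 to 0.17 over the replicates. The causes were not tested. At least 10 counts in every library left out *Psma8* and *Psmb11*.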
